A study of Mus musculus with 6 samples.

Results

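Complement is a cascade of plasma and tissue proteins that tags cells and debris. C1q, a recognition molecule built from the products of *C1qa*, *C1qb* and *C1qc*, activates the proteases C1r and C1s, which cleave C4 and C2. The resulting convertase cleaves C3, and the released peptides C3a and C5a act on the receptors C3ar1 and C5ar1. Serping1 (C1 inhibitor) blocks C1r and C1s, and Cd55 (decay-accelerating factor) speeds the decay of convertases on the surface of host cells. In the brain, microglia are known as the main source of C1q, and complement takes part in the removal of synapses during development.

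The genes described are 9 complement components, receptors and inhibitors chosen by name (*C1qa*, *C1qb*, *C1qc*, *C3*, *C4b*, *C3ar1*, *C5ar1*, *Serping1* and *Cd55*), out of 33460 Ensembl genes with a value in the data. All 9 were matched by symbol in the annotation of NCBIM37. The RNA-seq libraries comprise 3 of microvascular fragments and 3 of mural cells sorted by FACS, all from brains of NG2-DsRed/Pdgfrb-eGFP mice at P6, so that the fragments carry both reporters too. According to the methods, 3 mice of either sex were used and each brain was cut along the midline, one side going to FACS and the other to isolation of fragments with anti-CD31 beads. The reporters are driven by the *Pdgfrb* and *NG2* promoters, and the sort took cells positive for both, so that pericytes (PC) were taken, while vascular smooth muscle cells with little of a reporter may be missing. The fragments contain endothelial cells (EC) and mural cells together. The values are FPKM, that is, sequenced fragments corrected for gene length and library size, and so they can be compared between genes.

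Of 12 mural markers, 12 were higher in the sorted cells, at a median of 910% of the fragment level. *Pdgfrb* and *Cspg4* (NG2) are among them, and their promoters drive the reporters used for the sort. The 12 EC markers had a median of 68.5% and a range from 35.3% to 129%. Their summed FPKM was 2303 to 2679 in the fragments and 1671 to 2178 in the mural cells. Levels given below for mural cells are those of the sorted libraries, EC transcripts included. By the rule for calls given below, 2 EC markers were lower. Of the 12, 9 had every mural cell sample below every fragment sample (24.5% of all genes tested). The depth on protein-coding genes was approximately 5.39 to 5.99 M fragments in the microvascular libraries and 1.03 to 2.36 M in the mural cell libraries. This depth was recovered from the FPKM, which follow the removal of duplicates. It is not the number of read pairs sequenced, which the methods give as larger for each sample. Summed over 8 astrocyte markers, mural cell replicate 3 stood apart with an FPKM of 766 against 217 and 262 in the other mural cell replicates and 305 to 425 in the fragments. It also stood apart in 6 oligodendrocyte progenitor markers, with 183 against 41.8 and 55.9 in the other mural cell replicates and 48.1 to 69.2 in the fragments.

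Compared with the fragments, the mural cell samples had about one order of magnitude less mRNA of the C1q genes and of *C3ar1*, less *C3* and *C5ar1*, and more *Serping1*. A gene was called when limma on log2(FPKM + 1), adjusted by Benjamini-Hochberg over 14801 genes, gave an adjusted p under 0.05 and the ratio of mean FPKM was above 2 or under 0.5. Of the 9 genes, 6 were lower in mural cells, where 10.1% of all genes tested were lower, and 1 was higher, where 6.43% of all genes tested were higher. Over all genes 952 were higher and 1493 lower, but 1212 and 1080 under quantile normalization, which left the calls of the 9 genes as they were. The same 6 genes were below every fragment sample in every mural cell sample (24.5% of all genes tested), and *Serping1* was above (16.5% of all genes tested). *C4b* and *Cd55* overlapped between the groups and did not pass. In bulk samples such as these, fewer cells of a type and less RNA per cell cannot be told apart.

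**Figure D1:**
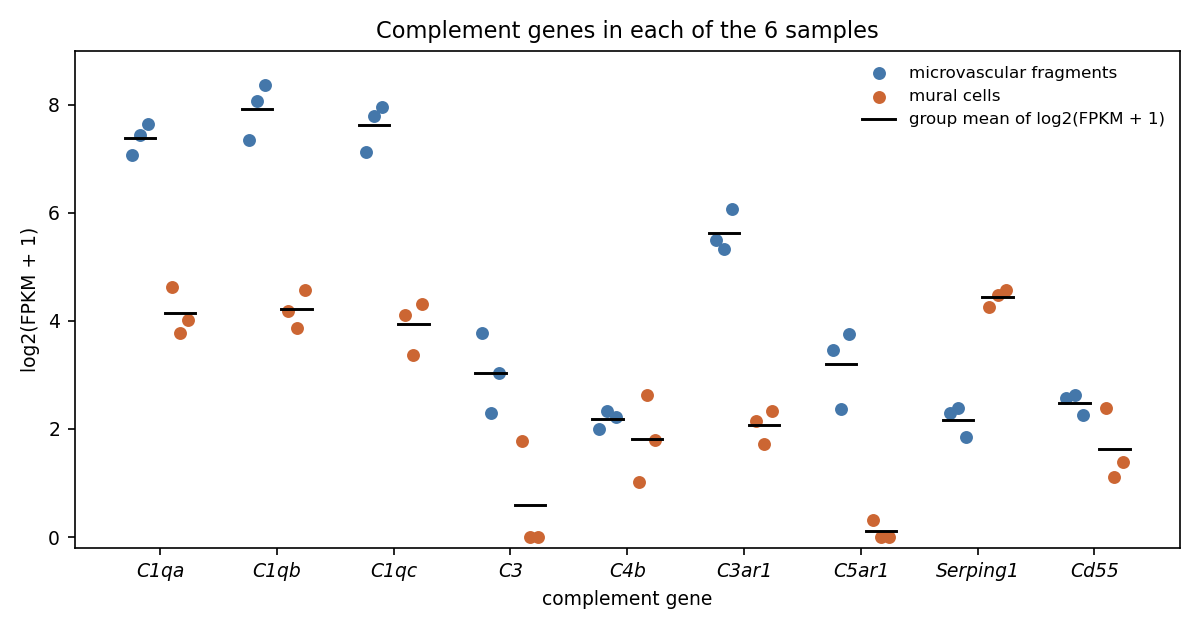
Level of the 9 complement genes in each sample. The y axis is log2(FPKM + 1), each point is 1 library (3 microvascular fragment samples in blue, 3 mural cell samples in orange) and the line is the group mean. The C1q genes and *C3ar1* are separated widely with fragments on top, *Serping1* is separated with mural cells on top, and *C4b* and *Cd55* overlap.

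The genes *C1qa*, *C1qb* and *C1qc*, which encode the A, B and C chains of C1q, lie next to each other on the minus strand of chromosome 4 within 18.7 kb (NCBIM37, 136436044 to 136454718). *C1qa* (ENSMUSG00000036887) had an FPKM of 133, 172 and 199 in fragment replicates 1, 2 and 3 and of 23.6, 12.8 and 15.1 in mural cell replicates 1, 2 and 3. *C1qb* (ENSMUSG00000036905) had 162, 266 and 331 in the fragments and 17.2, 13.6 and 22.9 in the mural cells. *C1qc* (ENSMUSG00000036896) had 139, 220.5 and 247 in the fragments and 16.4, 9.37 and 19.0 in the mural cells. For each chain gene the lowest fragment sample was several times the highest mural cell sample, and fragment replicate 1 was the lowest of the fragments for all of them.

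The mean FPKM of *C1qa* was 168 ± 32.9 (SD, n = 3) in fragments and 17.2 ± 5.70 (SD, n = 3) in mural cells, with a log2 difference of -3.24 ± 0.24 (SE; adjusted p = 2.0e-04, limma). *C1qb* had 253 ± 84.8 and 17.9 ± 4.68 (SD, n = 3 each), with a log2 difference of -3.72 ± 0.29 (SE; adjusted p = 2.3e-04, limma). *C1qc* had 202 ± 55.9 and 14.9 ± 4.98 (SD, n = 3 each), with a log2 difference of -3.69 ± 0.30 (SE; adjusted p = 2.6e-04, limma). The levels in mural cells were therefore 10.2%, 7.08% and 7.37% of those in fragments, and all of these calls held under the 15 alternative settings.

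The mural cell values rest on few reads. Where a gene has only 1 transcript in the annotation, its FPKM converts back to sequenced fragments. For *C1qa* and *C1qb* the counts are approximate, since their transcripts of 1040 and 1088 bases are shorter than those used to set the value of 1 fragment. *C1qa* had about 36, 8 and 10 fragments in the mural cell libraries against 520, 619 and 795 in the microvascular libraries. *C1qb* had about 28, 9 and 16 fragments against 671, 1013 and 1396. The C1q genes were thus detected in every mural cell library, at counts where counting error alone is large.

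The proportions of the chains were described within each library. *C1qb* made up 37.3% to 42.6% of the summed C1q FPKM in the fragments and 30.1% to 40.2% in the mural cells. *C1qa* made up 25.6% to 30.6% in the fragments and 26.5% to 41.3% in the mural cells, and *C1qc* 31.8% to 33.5% and 26.2% to 33.3%. The ranges of *C1qa* and *C1qb* overlapped between the groups, as did those of *C1qc*. In the fragments *C1qb* ranked 154th, *C1qc* 212th and *C1qa* 283rd by mean FPKM among the 14801 genes tested, and neighbors in this order overlapped. In mural cells the ranks were 5738th, 6518th and 5907th.

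Since the chain genes moved together, their upstream sequence is shown for those in the RefSeq promoter table (GRCm38.p6), which holds 6 of the 9 genes. *C1qa*, *C4b* and *Serping1* have no entry in that table. The window searched was the 250 bases before the RefSeq start. The letters GAGGAA, the core of sites of the myeloid factor PU.1, were searched on both strands and are shown in capitals. *C1qb* held a match at positions -30 to -25 and *C1qc* a match on the opposite strand, read TTCCTC, at positions -193 to -188. The stretches lie at chr4:136886201-136886320 (*C1qb*, positions -120 to -1) and chr4:136893075-136893164 (*C1qc*, positions -250 to -161), both read on the minus strand of GRCm38.p6.
C1qb: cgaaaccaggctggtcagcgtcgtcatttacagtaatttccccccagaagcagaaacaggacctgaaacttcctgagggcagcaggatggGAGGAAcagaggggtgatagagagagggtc
C1qc: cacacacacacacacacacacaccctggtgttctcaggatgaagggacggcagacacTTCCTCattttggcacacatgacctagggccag

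Over all 32851 windows of the same length, 23.3% held these letters on either strand, so that a match is common. The windows of *C3*, *C3ar1*, *C5ar1* and *Cd55* held none. The interferon response element core (GAAANNGAAA, 2.98% of windows), the gamma-activated site (TTCNNNGAA, 7.02%) and the CArG box (1.47%) had no match in the 6 windows. The TATA box letters (TATAAA, 12.4% of windows) were found in *C3ar1* only, at positions -235 to -230. None of the motifs searched overlapped another in these windows.

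The level of C1q was set beside markers of cells known to make it. Of 14 microglia markers, 13 were lower in mural cells, at a median of 8.94% of the fragment level and a range from 4.77% to 57.7%, and no marker was at 0 in all mural cell samples. Their summed FPKM was 2550 to 3008 in the fragments and 254 to 285 in the mural cells. Of 8 perivascular macrophage markers, 8 were lower, with a median of 9.60%. Their summed FPKM was 293 to 454 in the fragments and 53.1 to 84.6 in the mural cells. The part of these cells in the C1q difference was not tested.

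Per 100 FPKM of the 14 microglia markers, the summed C1q FPKM was 16.9, 25.8 and 25.8 in fragment replicates 1, 2 and 3. In mural cell replicates 1, 2 and 3 it was 20.1, 14.1 and 21.5. On this relative scale the groups overlapped, whereas the FPKM themselves did not.

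**Figure D2:**
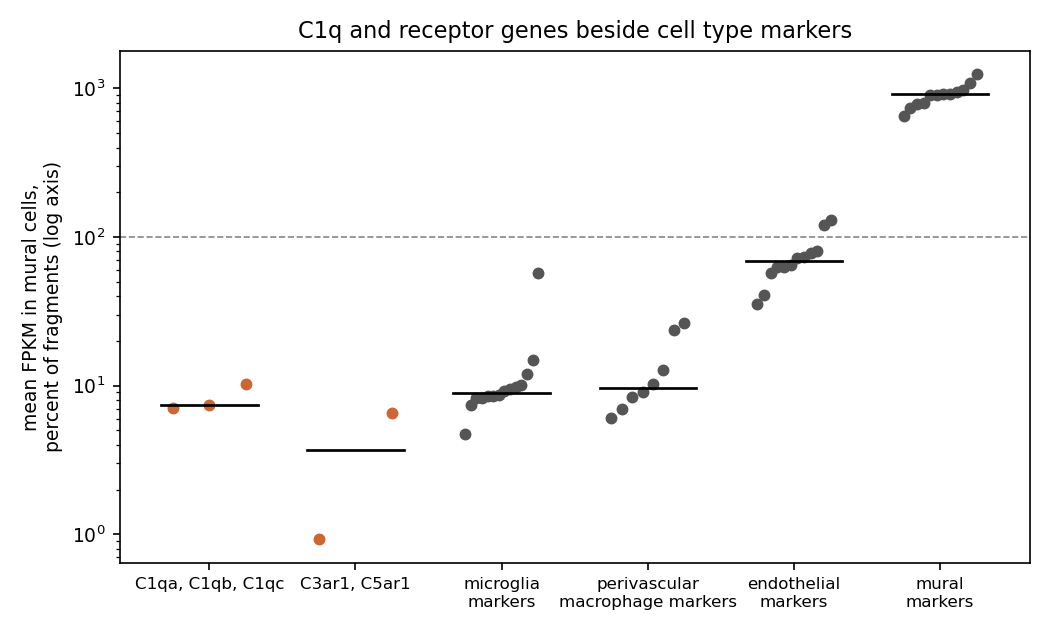
Mean FPKM in mural cells as percent of the mean in fragments, on a log axis. Each point is 1 gene, the horizontal line in each column is the median and the dashed line marks equal levels. The C1q genes (7.08% to 10.2%) lie within the range of the microglia markers and of the perivascular macrophage markers, the EC markers have a median of 68.5% and the mural markers of 910%.

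By a rule set without regard to function, the 5 genes whose log2(FPKM + 1) followed the mean of *C1qa*, *C1qb* and *C1qc* most closely over the 6 samples were *Sall1* (Pearson r = 0.9996), *Scamp2* (r = 0.9983), *Degs2* (r = 0.9982), *Kcnk13* (r = 0.9973) and *Stab1* (r = 0.9971). *Sall1* had an FPKM of 43.2, 52.9 and 57.4 in the fragments and 10.7, 7.98 and 10.8 in the mural cells. These values describe 6 libraries of 2 groups, and 97 of the 14801 genes had r above 0.99, so the 5 named genes are not alone in a high r.

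*C3* encodes the central component of the cascade, on which all activation routes converge. It lies on chromosome 17 (ENSMUSG00000024164, NCBIM37, 57343397 to 57367559). Its FPKM was 12.7, 3.88 and 7.17 in the fragments and 2.41 in mural cell replicate 1, and it was listed at 0 in mural cell replicates 2 and 3. The fragments were all above the mural cells, but they spread more than 3-fold among themselves. The value of mural cell replicate 1 rests on 21 fragments, and where the listed 0 stands for a count of 0, replicates 2 and 3 still allow an FPKM of up to 0.822 and 0.776 (3 fragments). A listed 0 occurred for genes abundant in the fragments too: of 1546 genes that reached 50 FPKM in every fragment sample, 12 were listed at 0 in a mural cell library. Among them was the microglia marker *Tyrobp*, with 141 to 189.9 in the fragments, 0 in mural cell replicate 2 and 12.6 and 10.5 in replicates 1 and 3. Its only transcript has 564 bases, so few fragments stand behind its mural cell values, and its 0 may be a count of 0.

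*C3* had a log2 difference of -2.44 ± 0.59 (SE; adjusted p = 0.024, limma), with a mean FPKM of 7.92 ± 4.45 (SD, n = 3) in fragments. Of the calls among the 9 genes it was the least stable. Without fragment replicate 1 the adjusted p was 0.105, without fragment replicate 3 it was 0.093, and without mural cell replicate 2 or 3 it was 0.059 and 0.060. With a pseudocount of 0.1 it was 0.051. Fragment replicate 1, the highest for *C3*, was also the highest for the summed FPKM of 8 neutrophil and monocyte markers (302 against 162 and 179 in replicates 2 and 3, and 14.1 to 20.0 in the mural cells). Of these 8 markers, 6 were lower in mural cells, where 10.1% of all genes tested were lower. *S100a8* and *Camp*, which are among the 6, were listed at 0 in all mural cell samples and entered the test through the fragments alone. The part of neutrophils and monocytes in the *C3* values was not tested.

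*C4b* encodes C4, the substrate of C1s (ENSMUSG00000073418, chromosome 17, 34865325 to 34880827). Its FPKM was 3.01, 4.01 and 3.63 in the fragments and 1.03, 5.18 and 2.45 in the mural cells. The mural cell samples lay on both sides of the fragments, and replicate 2 was the highest of all 6 samples. The log2 fold change was -0.37, with a 95% interval from -1.36 to 0.62 (adjusted p = 0.586, limma), which leaves room for a difference of more than 2-fold downward. Mural cell replicate 2 is the shallowest library, and without mural cell replicate 1 the log2 fold change was 0.027. Reads of *C4b* may be shared with the closely related *C4a*, whose mean FPKM was 1.20 in fragments and 0.439 in mural cells.

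*C3ar1* encodes the receptor for C3a and *C5ar1* a receptor for C5a, and in the brain they are known from microglia and other myeloid cells. *C3ar1* (ENSMUSG00000040552, chromosome 6, 122797156 to 122806179) had an FPKM of 44.2, 39.0 and 66.5 in the fragments and 3.43, 2.29 and 4.02 in the mural cells. Every fragment sample was many times every mural cell sample. The mean was 49.9 ± 14.6 and 3.25 ± 0.878 (SD, n = 3 each), a level of 6.51% in mural cells and a log2 difference of -3.57 ± 0.26 (SE; adjusted p = 1.9e-04, limma). The mural cell values rest on 25, 7 and 13 fragments, those of the microvascular libraries on 833, 672 and 1266. Per 100 FPKM of microglia markers, *C3ar1* had 1.72, 1.53 and 2.21 in the fragments and 1.21, 0.904 and 1.51 in the mural cells, so that the gap between the groups narrowed to the difference between 1.53 and 1.51.

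*C5ar1* (ENSMUSG00000049130, chromosome 7, 16832092 to 16844889) had an FPKM of 10.1, 4.14 and 12.6 in the fragments and 0.247 in mural cell replicate 1, and was listed at 0 in replicates 2 and 3. In mural cells it was thus at the limit of detection, since 1 fragment on its longest transcript corresponds to an FPKM of 0.241, 0.574 and 0.542 in the 3 libraries. The log2 fold change of -3.09 ± 0.41 (SE; adjusted p = 0.002, limma) depends on the pseudocount and was -5.75 with 0.1 in place of 1. *C5ar1* entered the test through its values in fragments alone, and without any single fragment sample it did not reach the filter on low values.

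*Serping1* encodes C1 inhibitor, a serpin that inactivates C1r and C1s (ENSMUSG00000023224, chromosome 2, 84605544 to 84615601). Its FPKM was 3.90, 4.21 and 2.60 in the fragments and 18.0, 21.4 and 22.7 in the mural cells. The mural cell samples lay close together and far above the fragments, and the order of the groups was the reverse of that for C1q. The mean was 3.57 ± 0.854 and 20.7 ± 2.41 (SD, n = 3 each), a ratio of 5.79 and a log2 difference of 2.26 ± 0.23 (SE; adjusted p = 6.0e-04, limma). The call held under the 15 alternative settings.

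Among the 9 genes *Serping1* had the highest mean FPKM in mural cells, although its samples overlapped with those of *C1qb*, and it ranked 8th in the fragments. Among all genes tested it went from rank 11748 in the fragments to 5108 in the mural cells. Set against the mural markers, the rise was smaller than theirs. Per 1000 FPKM of the 12 mural markers, *Serping1* had 6.75, 7.68 and 6.85 in the fragments and 4.56, 4.26 and 5.63 in the mural cells, with every mural cell sample below every fragment sample. Of 8 fibroblast markers, 5 were higher (*Col1a1*, *Col1a2*, *Col3a1*, *Dcn* and *Lum*), while *Pdgfra*, *Fbln1* and *Igfbp2* did not pass. Their summed FPKM was 119 to 135 in the fragments and 578 to 798 in the mural cells. Most of the mural cell sum came from *Col1a1*, *Col1a2* and *Col3a1*, with a mean FPKM of 111, 221 and 213. The authors list *Col1a2* and *Col3a1* among their mural cell-enriched genes, so the sum is not specific to fibroblasts. The part of fibroblasts in the *Serping1* values was not tested.

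The 5 genes most similar to *Serping1* over the 6 samples were *Mylk* (Pearson r = 0.9988), *Sept5* (r = 0.9986), *Ppp1r14a* (r = 0.9985), *Pdlim1* (r = 0.9984) and *Gpc3* (r = 0.9981). *Ppp1r14a* had an FPKM of 16.2, 17.5 and 12.2 in the fragments and 119, 158 and 161 in the mural cells. Here too the named genes were not alone in a high r, with 137 genes above 0.99.

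*Cd55* (ENSMUSG00000026399, chromosome 1, 132335604 to 132359321) had an FPKM of 4.93, 5.17 and 3.76 in the fragments and 4.24, 1.15 and 1.63 in the mural cells. Mural cell replicate 1, the deepest of the sorted libraries, lay among the fragments, and the other replicates lay below. The log2 fold change was -0.85, with a 95% interval from -1.74 to 0.04 (adjusted p = 0.160, limma), and the ratio of 0.507 missed the 2-fold limit narrowly. Without mural cell replicate 1, *Cd55* passed as lower with a log2 fold change of -1.23 (adjusted p = 0.027, limma). A gene on the opposite strand, *Gm16083*, overlaps *Cd55*, and whether the counting used the strand is not stated.

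**Figure D3:**
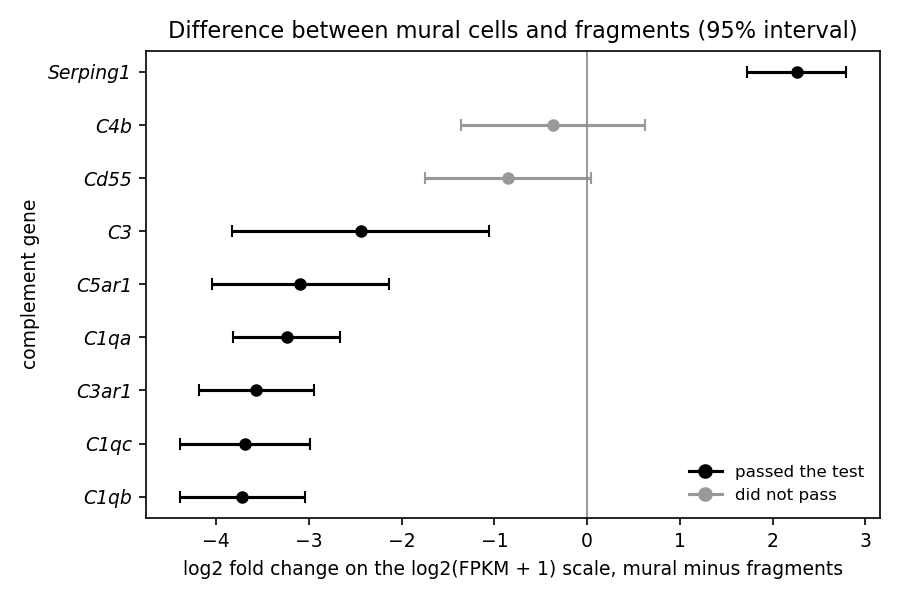
Difference between mural cells and fragments for each gene. The x axis is the log2 fold change on the log2(FPKM + 1) scale (mural minus fragments) from limma with its 95% interval, black where the gene passed the test and grey where it did not. *Serping1* lies to the right of 0, the intervals of *C4b* and *Cd55* include 0, and the other 6 genes lie to the left, with *C3* nearest to 0 among these.

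The rest of the pathway was examined with a list of 49 other complement genes, of which 48 were found and 30 had values high enough to be tested. Of these, 4 were higher in mural cells (*C1s*, *Colec12*, *Vtn* and *Colec11*, the last of which reached the filter on low values in the mural cells only). A further 7 were lower (*C2*, *Cfp*, *Fcna*, *C5ar2*, *Itgam*, *Itgax* and *Itgb2*) and 19 did not pass. Of the 7, *Fcna*, *C5ar2* and *Itgax* reached that filter in the fragments only. Over all genes tested, 6.43% were higher and 10.1% lower. The median level of the 30 genes was 78.2% of the fragments, beside 94.3% over all genes tested. Another 18 genes were too low to test, and 6 of them were listed at 0 in all libraries.

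**Figure D4:**
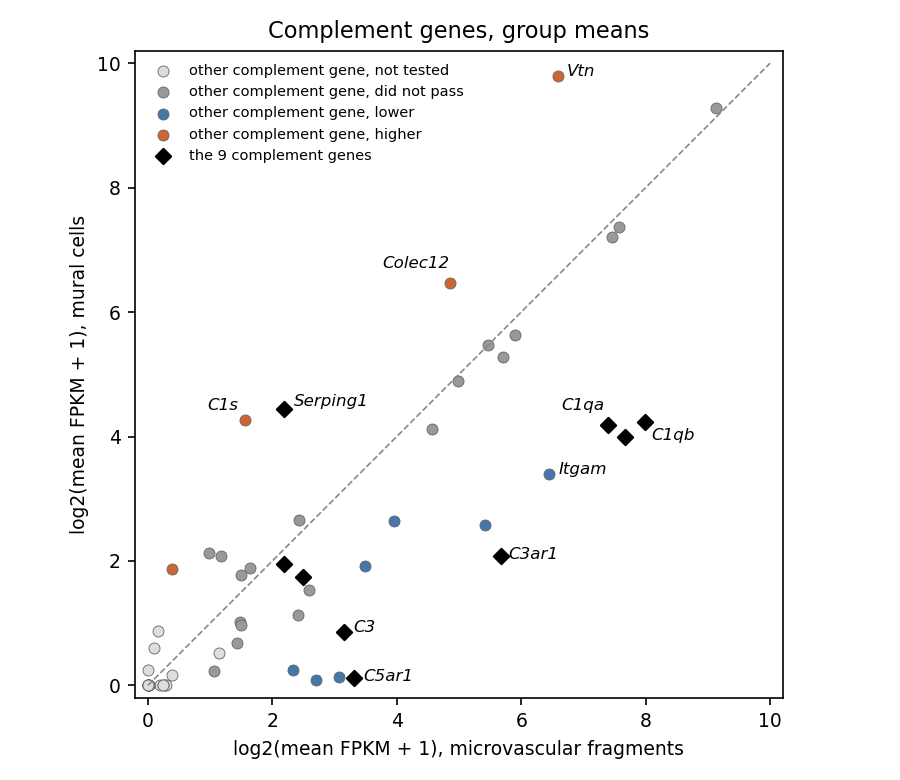
Group means of the 9 complement genes (diamonds) and of the other complement genes (circles). Both axes are log2(mean FPKM + 1), the dashed line marks equal levels, and color gives the result of the test. *Serping1*, *C1s*, *Colec12* and *Vtn* lie above the line, and the C1q genes, *C3ar1* and the integrin gene *Itgam* lie well below it.

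Of the proteases that Serping1 inhibits, *C1s* was higher in mural cells. Its FPKM was 2.12, 2.33 and 1.37 in the fragments and 10.5, 10.3 and 34.1 in the mural cells, with a log2 difference of 2.51 ± 0.46 (SE; adjusted p = 0.008, limma), and it was called under all 15 alternatives. Mural cell replicate 3 had 3 times the level of the others and is the replicate with the high astrocyte and oligodendrocyte progenitor markers, and the part of those in this value was not tested. *C1ra*, which encodes C1r, had 0.601, 1.32 and 1.01 in the fragments and 1.99, 2.63 and 5.47 in the mural cells, again highest in replicate 3. Its groups did not overlap, but the adjusted p was 0.078. The ratio of *C1s* to *Serping1* within a library was 0.526 to 0.554 in the fragments and 0.584, 0.483 and 1.50 in mural cell replicates 1, 2 and 3. The annotated span of *C1s* overlaps that of its paralog *C1s2* on the same strand, and whether reads were shared was not tested.

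Collectins recognize sugars on surfaces, and *Colec12* encodes a scavenger receptor of this family. It had an FPKM of 23.1, 26.0 and 35.0 in the fragments and 87.6, 96.8 and 77.6 in the mural cells, with a log2 difference of 1.62 ± 0.18 (SE; adjusted p = 8.3e-04, limma). *Colec11* was low, with 0.184, 0.199 and 0.544 in the fragments and 2.39, 4.54 and 1.07 in the mural cells. It entered the test through the mural cells alone. Its adjusted p was 0.049, and it was not called under 10 of the 15 alternatives. Without any single fragment sample it was tested and did not pass. Without any single mural cell sample, and with the filter at 5, it was too low to be tested. *Vtn*, whose product vitronectin also restrains the terminal complex, was higher with a ratio of 9.31.

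The 7 genes that were lower comprise 4 receptor genes and 3 genes of initiation and cascade. *Itgam* and *Itgb2*, the subunits of complement receptor 3, had a mean FPKM of 86.7 ± 9.01 and 41.6 ± 4.38 (SD, n = 3 each) in fragments. In mural cells *Itgam* had 6.50, 3.10 and 19.0 and *Itgb2* 9.30, 2.42 and 3.21. *Itgax*, the alpha subunit of complement receptor 4, *C5ar2*, the other C5a receptor, and *Fcna*, a ficolin that activates the lectin route, were listed at 0 in mural cell replicates 2 and 3, and in replicate 1 they had 0.294, 0.174 and 0.544. Those genes entered the test through the fragments alone. *C2*, a protease of the convertase, had 13.5, 11.4 and 18.5 in the fragments and 6.45, 4.16 and 5.22 in the mural cells, a level of 36.4% (adjusted p = 0.011, limma). *Cfp*, which encodes properdin, the stabilizer of the alternative convertase, had 9.68, 9.78 and 11.3 in the fragments and 5.55, 1.87 and 0.884 in the mural cells (adjusted p = 0.028, limma).

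Of 12 regulators tested, *Vtn* was higher and the others did not pass in either direction. *Cr1l*, which encodes Crry, the main rodent inhibitor of C3 convertases on cells, had a mean FPKM of 30.8 ± 3.19 in fragments and 28.8 ± 6.94 in mural cells (SD, n = 3 each). Its log2 fold change was -0.11, with a 95% interval from -0.56 to 0.33 (adjusted p = 0.715, limma). *Cd59a*, an inhibitor of the terminal complex, had 22.8 ± 4.17 and 16.4 ± 8.05 (SD, n = 3 each), with an interval from -1.38 to 0.27 (adjusted p = 0.313, limma). *Cr1l* was thus higher than *Cd55* in every sample, and *Cd46* was low, at 1.81 ± 0.160 and 2.43 ± 1.43 (SD, n = 3 each). *Clu*, which encodes clusterin, had 63.1, 66.4 and 47.0 in the fragments and 29.3, 29.0 and 86.9 in the mural cells, with the high value again in replicate 3.

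Of the genes for the terminal components C5 to C9, *C8g* was the only one with values high enough to be tested. It was listed at 0 in mural cell replicates 1 and 2 and had 9.71 in replicate 3, against 0.577 to 2.19 in the fragments. *C8a*, *C8b* and *C9* were listed at 0 in all libraries.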

How the data were processed

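The deposited values are FPKM, 1 file per library. According to the labels and methods, the authors mapped the read pairs on NCBIM37 (TopHat2 2.0.4), discarded duplicates (Picard 1.92), which can lower the values of abundant transcripts, and used Cufflinks 2.2.1. The kit was stranded and rRNA was depleted. How the libraries were scaled, and whether counting used the strand, is not given in the sources used here.

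The files hold 33460 genes after merging repeated lines of 9 identifiers. Symbols come from the GENCODE annotation for NCBIM37 (33116 genes matched). Groups come from the sample labels. The samples come from 3 mice, and which sorted and fragment samples share a brain is not stated. Differences were tested with limma 3.58.1 (R 4.3.3, trended prior variance) on log2(FPKM + 1), for the 14801 genes reaching an FPKM of 1 in 3 samples or more. A fold change on this scale understates the change of low genes. Since FPKM are not counts, no count test was used. The fit was tested on simulated data. Group means and ratios are of FPKM. Fragments were recovered as whole multiples (within 0.05) of the value of 1 fragment, which held for 97.9% to 98.9% of low values of genes with 1 transcript longer than 1500 bases. The value of 1 fragment and a length offset were chosen in each library to make this share highest, so it is not an independent check. Fragment counts and limits cover counting error only. Of 12 housekeeping genes, 0 were listed at 0 in any library, but 12 of 1546 genes that reached 50 FPKM in every fragment sample were listed at 0 in a mural cell library.

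The genes and lists were chosen with earlier results of these data known. Named were the 9 genes, other complement genes called by the fit or described by group, and the 5 genes with the highest r to C1q and to *Serping1*. *Cr1l*, *Cd59a*, *Cd46*, *Clu*, *C1ra*, *C1s2*, *C4a*, *Mbl1*, *Mbl2*, *Vsig4*, *Tyrobp*, *S100a8*, *Camp* and the terminal genes fall outside this rule and were chosen after their values were seen. The fibroblast markers were also named after their values were seen. The alternatives were a pseudocount of 0.1, no filter or a filter at 5, quantile normalization, median-ratio scaling, a block for the replicate number, no intensity trend, other thresholds, and leaving out each sample. Python 3.11.15 was used for the other steps. 1 complement gene is not reported here.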

Additional observations from a re-analysis of the deposited data

How the results depend on the processing

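The calls of *C1qa*, *C1qb*, *C1qc*, *C3ar1* and *Serping1* held under all 15 alternatives. *C5ar1* was called under 11 and under the other 4 was too low to be tested, and *C3* was called under 8. With each sample left out in turn, 4 to 7 of the 9 genes were lower and 1 was higher. Of the other complement genes 3 to 4 were higher, and over all genes 691 to 949 were higher. Without a fragment sample, 2 to 3 other complement genes and 607 to 702 genes over all were lower. Without a mural cell sample, 7 to 10 and 1416 to 1733 were lower. The filter still asked for 3 samples. Genes that reached it only in the fragments, or only in the mural cells, were thus not tested once a sample of that group was left out. A filter at an FPKM of 5, which tests fewer genes, gave 948 lower genes over all and 4 lower among the other complement genes, and an adjusted p under 0.01 gave 845 lower genes over all, against 1493 and 7 in the reported fit. With each sample left out, the log2 fold change of *C4b* ranged from -0.77 to 0.027, and it was above 0 without mural cell replicate 1. The cause was not tested. Under quantile normalization 52.9% of all calls were in the higher direction against 38.9% in the reported fit, and the median log2 fold change over all genes was 0.01 against -0.12, so that differences of that size should not be read. *C1ra* then passed as higher, as it did without mural cell replicate 1. The same replicate numbers are used in both groups. Same-numbered samples deviated together with r of 0.082, 0.02 and 0.045, which is too weak to show that the numbers pair the samples, although every sample correlated best with its own number. With the replicate block, 900 genes were higher and 1344 lower over all. Of the 9 genes 1 was higher and 6 lower, as without the block, and of the other complement genes 3 were higher and 7 lower, with *Colec11* not passing. Depth limits the statements on genes near 1 fragment in the mural cells, among them *C5ar1*, *Itgax*, *C5ar2* and *Fcna*.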

Other observations

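Some complement genes were too low to enter the reported fit. *C1s2*, a paralog of *C1s*, had an FPKM of 0.0889, 0.0960 and 0.175 in the fragments and 0.458, 0.986 and 1.03 in the mural cells, with no overlap between the groups, and was not tested in that fit. *C6*, a component of the terminal complex, had 1.53 in mural cell replicate 1 and was listed at 0 in replicates 2 and 3, against at most 0.105 in the fragments. The lectin genes *Mbl1* and *Mbl2* were listed at 0 in all libraries, and *Vsig4*, a macrophage receptor for C3 fragments, had 0.174 to 0.191 in the fragments and was listed at 0 in the mural cells.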
